A study of Mus musculus with 24 samples.

Results

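H3K4me3 peaks that lay inside the introns of protein-coding genes, away from any annotated start site, were examined in C127, a line derived from mouse mammary epithelium. A peak was counted when it was more than 1000 bp from every transcription start site (TSS) of the comprehensive GENCODE vM21 annotation and its midpoint fell in a protein-coding gene body but in no exon. On the 20 chromosomes used (19 autosomes and X), 1172 of 13447 peaks met this rule, 8.72% (95% Wilson CI 8.25 to 9.20). They made up 42.1% of the 2784 peaks that were far from every TSS. Of the remaining far peaks, 1321 were intergenic, 135 had their midpoint in an exon and 156 lay in bodies of noncoding genes or pseudogenes. The other 10663 peaks lay within 1000 bp of a TSS and are called start-site peaks.

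The series held 24 ChIP-seq samples of C127 cells in 12 groups, which covered CFP1, its GFP-tagged mutants, KDM2B, RNA polymerase II, H3K4me3 and inputs. The H3K4me3 ChIP, whose labels name no GFP construct, had 3 replicates, while the remaining 21 samples were not used here. The deposited measurement was 1 list of peaks present in all replicates, with positions and no heights. Every value below therefore lacks a spread between replicates, the depth is unknown, and intervals cover counting error over loci only.

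H3K4me3 is a histone mark placed by the SET1 and MLL complexes, best known from the starts of active genes. CFP1 brings the SET1 complex to CpG islands, stretches rich in unmethylated CpG that overlap most mammalian promoters. Inside genes, the mark can lie at start sites that an annotation lacks, at downstream extensions of a promoter domain and at active enhancers, which more often carry H3K4me1.

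The central sequence is shown for a pair of members chosen by width. The widest intronic peak, in the first intron of Myh9, which encodes a non-muscle myosin heavy chain, is shown with the widest in Gm20388, the gene model with most intronic peaks. The central 300 bp of both are given on the plus strand of mm10, with every CpG in capitals. The windows lie at chr15:77820058-77820357 (Myh9) and chr8:122345296-122345595 (Gm20388). They hold 7 CpGs and 3 CpGs, in that order. In the central 500 bp the CpG density was 1.6 and 1.4 per 100 bp, against a median of 1.4 in all members. Both peaks overlapped a CpG island as defined below, and the one in Gm20388 held a start site of Gm46056 in the RefSeq annotation.
Myh9: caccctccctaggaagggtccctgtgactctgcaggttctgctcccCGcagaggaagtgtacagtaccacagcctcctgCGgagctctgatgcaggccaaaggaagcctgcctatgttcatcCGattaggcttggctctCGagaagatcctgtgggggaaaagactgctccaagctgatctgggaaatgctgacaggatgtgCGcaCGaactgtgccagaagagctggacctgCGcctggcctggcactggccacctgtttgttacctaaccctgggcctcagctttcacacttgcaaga
Gm20388: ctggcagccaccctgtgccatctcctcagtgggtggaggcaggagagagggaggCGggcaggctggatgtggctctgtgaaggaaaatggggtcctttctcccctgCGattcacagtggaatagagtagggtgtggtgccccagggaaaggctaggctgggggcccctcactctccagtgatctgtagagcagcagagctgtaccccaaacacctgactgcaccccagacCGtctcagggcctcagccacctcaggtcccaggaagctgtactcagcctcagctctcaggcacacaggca

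Many members without a CpG island held the AP-1 motif TGAGTCA, the element bound by FOS and JUN dimers, at their centre. The widest such member lay in Ccdc12, and the 3 next widest are given for comparison, chosen after their values were seen. The 61 bp around the motif are on the plus strand of mm10, with the motif in capitals, at chr9:110684556-110684616 (Ccdc12), chr14:25759979-25760039 (Zcchc24), chr3:53065003-53065063 (Lhfp) and chr2:85061179-85061239 (Tnks1bp1).
Ccdc12: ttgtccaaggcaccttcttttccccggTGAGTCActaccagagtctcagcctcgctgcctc
Zcchc24: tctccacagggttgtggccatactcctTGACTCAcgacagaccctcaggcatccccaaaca
Lhfp: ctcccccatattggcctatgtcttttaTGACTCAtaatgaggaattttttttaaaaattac
Tnks1bp1: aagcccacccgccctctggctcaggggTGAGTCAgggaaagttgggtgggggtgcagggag

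The motif reads TGAGTCA in Ccdc12 and Tnks1bp1 and as its reverse complement in Zcchc24 and Lhfp. These 4 peaks were 2830, 2780, 2780 and 2519 bp wide.

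Intronic peaks were poor in CpG. The observed over expected CpG ratio of the central 500 bp had a median of 0.240 (quartiles 0.167 and 0.331, n = 1172), against 0.308 in intergenic far peaks and 0.549 in start-site peaks. The median CpG density was 1.4 per 100 bp in intronic peaks and 3.6 in start-site peaks. Only 32 intronic peaks reached a ratio of 0.6 (2.73%), compared with 12.3% of intergenic peaks and 44.5% of start-site peaks. GC content differed less, at a mean of 50.2% ± 5.49 (SD over peaks) in intronic, 51.8% in intergenic and 55.3% in start-site peaks.

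The lower CpG ratio held across the genome. With chromosomes as units, the mean ratio was 0.267 in intronic and 0.361 in intergenic peaks, a difference of -0.0941 (SD 0.0496), and was lower on 19 of 20 chromosomes (permutation test by sign flips, two-sided, adjusted p = 1.67e-05). When RefSeq TSSs were added to the rule, the difference from intergenic peaks was -0.0750, the smallest over its 11 alternatives. Against start-site peaks, the difference was -0.287 (SD 0.0324) and negative on 20 of 20 chromosomes (permutation test, adjusted p = 1.67e-05). The unadjusted p of both was 1e-05, the smallest that 100000 resamples can give. Intronic peaks were nevertheless richer in CpG than the DNA around them. Windows of the same length 5000 bp to either side, available for 1162 members, had a mean ratio of 0.210, and the centre was 0.0579 higher (SD 0.0282, 20 of 20 chromosomes, permutation test, adjusted p = 1.67e-05). Repeats filled 12.3% of the central windows on average and 24.9% of the flanking ones, and the part of this difference in the CpG ratio was not tested.

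**Figure D1:**
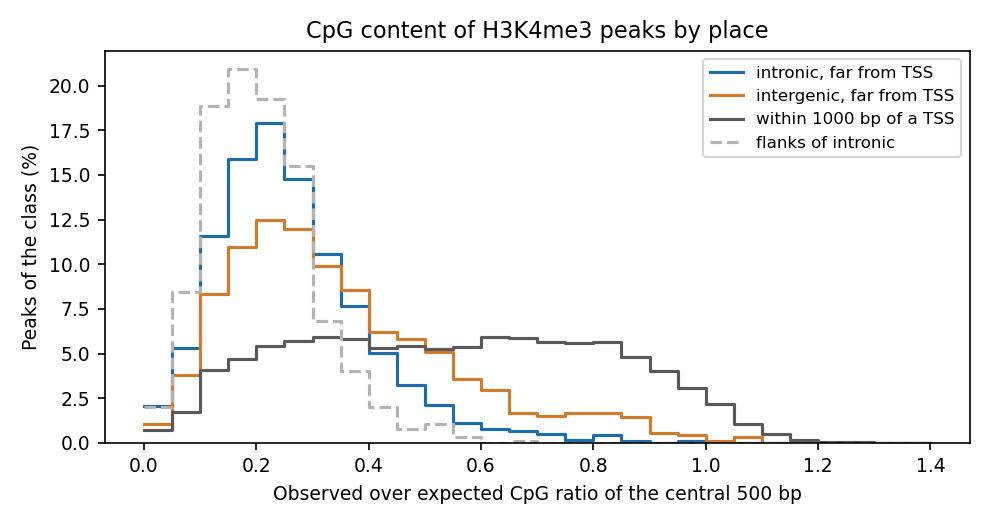
Share of peaks (%, vertical axis) by observed over expected CpG ratio of the central 500 bp (horizontal axis, bins of 0.05) for intronic, intergenic and start-site peaks and for the flanks of the intronic peaks. The intronic curve lies close to its flanks, with a median of 0.240, whereas start-site peaks spread up to and above 1.

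A CpG island, defined here by a length of 200 bp or more, a GC fraction from 0.5 and a CpG ratio from 0.6, was overlapped by 310 of 1172 intronic peaks, 26.5% (95% CI 24.0 to 29.1). The share was 46.1% for intergenic and 94.3% for start-site peaks. Per chromosome the shares were 27.4% in intronic and 47.8% in intergenic peaks (difference -20.5 percentage points, SD 11.5, lower on 19 of 20 chromosomes, permutation test, adjusted p = 2.86e-05). When RefSeq TSSs were added to the rule, this difference was -17.9 points. With stricter islands (500 bp, 0.55 and 0.65), 38 intronic peaks remained (3.24%), against 15.5% of intergenic and 85.9% of start-site peaks. Start-site peaks were also wider (median 3023 bp), and the part of width in these shares was not tested. Intronic peaks with an island had a median width of 1383 bp and those without one 1014 bp.

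At the upper end of the CpG ratio stood peaks in Trim14 (0.972), Ldb3 (0.846), Zfp13 (0.839) and Arhgap23 (0.838). These 4 overlapped a strict island. Trim14 had no peak at its own TSS. At the other end, some central windows held no CpG at all, among them those in Sorcs2, Slc6a6, St5, Atxn7l1 and Lnpep. Members in Lmod1 and Aida, for example, tied with them. The widths of the 5 named first ran from 576 bp in Slc6a6 to 2115 bp in Lnpep, a membrane aminopeptidase. A peak of over 2 kb was thus called around a centre without a CpG. The St5 peak held a RefSeq start site listed under the symbol Denn2b, and gene symbols can differ between annotations.

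The widths of intronic peaks overlapped widely with those of intergenic peaks. The median was 1110.5 bp (quartiles 737 and 1696), and widths ran from 251 to 9694 bp. The per-chromosome medians averaged 1093.9 bp for intronic and 1046.3 bp for intergenic peaks, a difference of 47.6 bp (SD 217), positive on 10 of 20 chromosomes, which did not pass the threshold (permutation test, adjusted p = 0.344). With the widest member of each host gene alone, the difference was 110 bp (permutation test, adjusted p = 0.0391). That setting selects on width among intronic peaks only and leaves all intergenic peaks in, so it cannot decide whether the classes differ in width.

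Myh9 held the widest member (9694 bp, chr15:77815361-77825054). It was followed by Bahcc1, which encodes a chromatin protein with a BAH domain (7625 bp), Ahnak2 (6712 bp), Bcor, which encodes a BCL6 corepressor (6385 bp), and Pdgfrb, a platelet-derived growth factor receptor (6147 bp). Next were Pxn, the focal adhesion adaptor paxillin (5902 bp), and Arhgap23 (5894 bp). Pmepa1, an inhibitor of TGF-beta signalling, had a pair of wide members in its first intron (5631 and 5592 bp). Ppard, a lipid-sensing nuclear receptor, had one of 5498 bp. Of these hosts, Ahnak2 alone had no peak at its own GENCODE TSS, though its member held a RefSeq TSS of Ahnak2 itself.

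Some members coincided with start sites of another annotation. A RefSeq TSS lay inside 51 of the 1172 peaks (4.35%, 95% CI 3.33 to 5.68) and within 1000 bp of 73. Of the 51, 25 overlapped a CpG island (49.0%). They included the wide members in Ahnak2, Bcor and Arhgap23 and members in Steap3 (4549 bp) and Sh3bp4 (4444 bp). In Bcor the RefSeq gene was Gm46687, and in the others named here it was the host itself. These examples beyond the widest members were chosen after their values were seen.

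The distance from the peak midpoint to the nearest TSS of the host gene had a median of 11.8 kb. It was at most 5 kb in 250 members (21.3%), 5 to 10 kb in 275 (23.5%), 10 to 50 kb in 501 (42.7%), 50 to 100 kb in 88 (7.51%) and more than 100 kb in 58 (4.95%). Measured to the 5′ end of the gene, the median distance was 30.3 kb, since many hosts have internal start sites. The host of the median member was 104 kb long. At the limit of the rule, the nearest TSS was 1001 bp from a member in Fgfr2, 1006 bp from one in Dnajc4 and 1010 bp from one in Kifc1. The Fgfr2 model is 2960900 bp long, and this member lay 308 kb from the nearest TSS of Fgfr2 and held a RefSeq TSS of Tacc2. Just outside it, peaks in Atf3, Kcnh2 and Setd7 lay 1000, 995 and 991 bp from a TSS.

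Intronic peaks were more often in the first intron than its length alone gives. Of 1172 members, 520 lay in the first intron of the representative transcript of the host (44.4%, 95% CI 41.5 to 47.2), 195 in the second and 312 in a later one. The remaining 145 lay in the gene body but in no intron of that transcript. For each member, the first intron's share of the bases that its midpoint could take under the rule, called permitted bases, was computed, and these averaged 30.7%. Per chromosome, the observed share was 43.7% and that from length 29.97%, a difference of 13.7 percentage points (SD 5.93), positive on 20 of 20 chromosomes (permutation test, adjusted p = 1.67e-05). When the first intron of any protein-coding transcript was counted, the shares over all members were 60.4% observed and 45.1% from length. Members with and without a CpG island were in the first intron at 41.6% (95% CI 36.3 to 47.2) and 45.4% (95% CI 42.1 to 48.7).

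Members also lay toward the 5′ end of their host. On a scale of permitted bases from 0 at the 5′ end to 1 at the 3′ end, the per-chromosome mean position was 0.433 (difference from an even spread -0.0670, SD 0.0630), and it was below 0.5 on 18 of 20 chromosomes (permutation test, adjusted p = 5.37e-04). With the permitted bases cut into 10 equal bins, the first 3 bins held 14.7%, 13.1% and 13.7% of members and the last 4 between 6.66% and 7.42% each. With only peaks more than 5000 bp from every TSS, the first-intron difference was 11.5 percentage points and the position difference -0.0714.

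**Figure D2:**
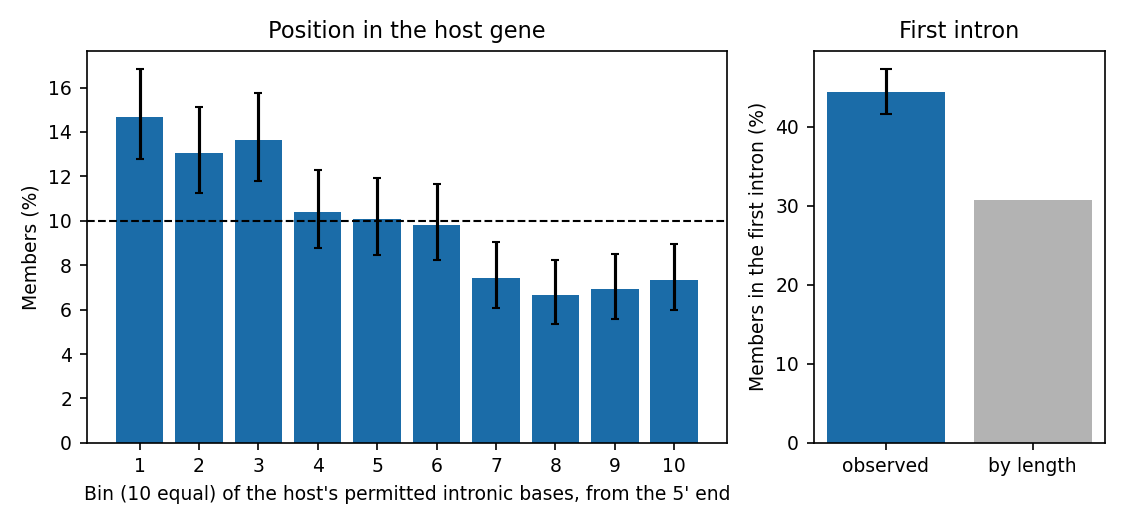
Left, share of the 1172 members (%, with 95% Wilson intervals) in 10 equal bins of the permitted intronic bases of the host, from the 5′ end, with a dashed line at the even share of 10%. Right, members in the first intron (44.4%, with interval) beside the share from length (30.7%). The share declines from 14.7% in the first bin to 7.34% in the last.

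The 1172 members lay in 886 host genes, 4.07% of the 21755 protein-coding genes. Most hosts had 1 member (701), while 185 (20.9%, 95% CI 18.3 to 23.7) had several and together held 471 members (40.2%). Of these 185, 128 had 2 members, 36 had 3 and 10 had 4. The median gap between neighbouring members of a host was 17.7 kb, and 71 of 286 such gaps were within 5 kb. The nearest start-site peak was a median of 20.5 kb away, within 5 kb for 263 members and within 1 kb for 93. Peaks up to 250 bp apart had been merged by the authors, so no smaller gap could occur.

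Gm20388 led the count with 13 members. It is a gene model of 4435 kb on chromosome 8 (119910841 to 124345722) with 71 other coding genes inside it, and the 5 members farthest from a TSS of their host all lay in it, at 2271 to 2646 kb. These distances belong to the gene model, and the nearest GENCODE TSS of any gene was 3598 to 87063 bp away for these 5. Those at 2320, 2435 and 2646 kb held a RefSeq TSS, of Zfp469, Gm46056 and Gm34847 in that order. Next came Gse1, a chromatin-associated coiled-coil protein gene, with 7 members over 235 kb, 4 of them with a CpG island. Aff1, which encodes a scaffold of the super elongation complex, had 6 members, and 3 of them lay between 80037 and 86317 bp from its 5′ end. Zmiz1, a transcriptional coregulator, also had 6, none with an island, and 5 of these lay within 36.8 kb of its 5′ end.

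The hosts with 5 members were Sh3bp4, Maml3, Vgll4, 2900026A02Rik, Zfhx3, Ptprj and Stard13. In 2900026A02Rik, 4 of the 5 lay between 4722 and 12179 bp from the 5′ end. In Zfhx3, a homeobox and zinc finger factor gene of 1019 kb, all 5 lay in the 3′ part, 779.7 to 954.6 kb from the 5′ end. Zfhx3 also has internal start sites, and these 5 lay 7.7 to 182.6 kb from the nearest TSS of the gene. The member nearest the 5′ end had a start-site peak 2622 bp away. The 5 members in Ptprj, a receptor tyrosine phosphatase gene, all lay in the first intron and were 380 to 2065 bp wide. Maml3, a NOTCH coactivator gene, had 4 members in the first intron and 1 in the second. The 11 hosts with 5 or more members each had a peak at their own TSS.

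**Figure D3:**
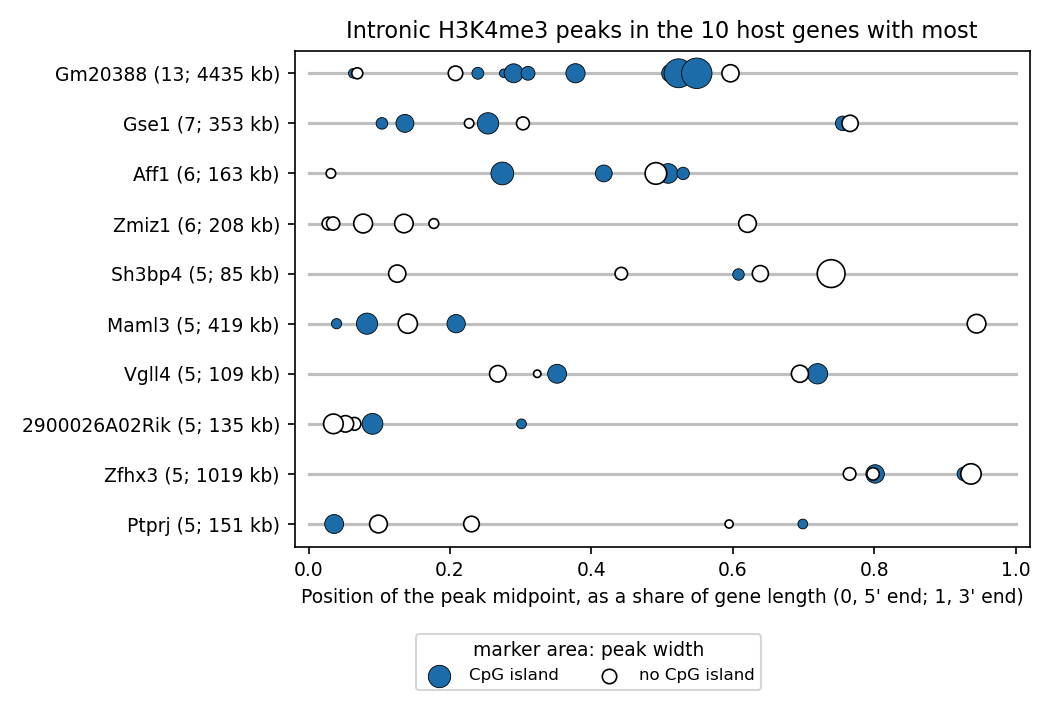
Position of each intronic peak along the 10 host genes with most members (5′ end at 0, 3′ end at 1 of gene length), with the number of members and the gene length in brackets. Marker area is proportional to peak width and filled markers overlap a CpG island. Members of Zmiz1 crowd at the 5′ end and those of Zfhx3 near the 3′ end of its long gene model, which has internal start sites.

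Host genes mostly carried H3K4me3 at their own start. A peak within 250 bp of a TSS of the gene was found at 719 of 886 hosts, 81.2% (95% CI 78.4 to 83.6), against 50.2% of all coding genes, and at 171 of the 185 hosts with several members (92.4%). Of genes with such a peak 6.58% hosted a member, and of genes without one 1.54%. Since genes with a peak were longer (median 24434 bp against 11064 bp), members were also counted per Mb of permitted intron. The density was 2.17 per Mb in genes with their own TSS peak and 0.423 in genes without, and it was higher in the former on 20 of 20 chromosomes.

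The difference was present in every length class. Genes of 30 to 100 kb had 2.42 members per Mb with an own peak and 0.732 without, and genes of 100 to 300 kb had 2.49 and 0.441. Genes over 300 kb had 1.22 and 0.136. In genes up to 10 kb the values, 2.53 and 0.626, rested on 10 and 5 members. The peak at the host's own TSS was also wide. Where a gene had peaks at several TSSs, the widest was taken. The median of this width was 3885 bp in the 719 hosts and 3216 bp in the 10206 other genes with an own peak. It was larger in hosts on 19 of 20 chromosomes, and the part of the number of TSSs in this difference was not tested. In genes up to 10 kb the order was the opposite, 2826 bp in 10 hosts and 3380 bp in others.

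**Figure D4:**
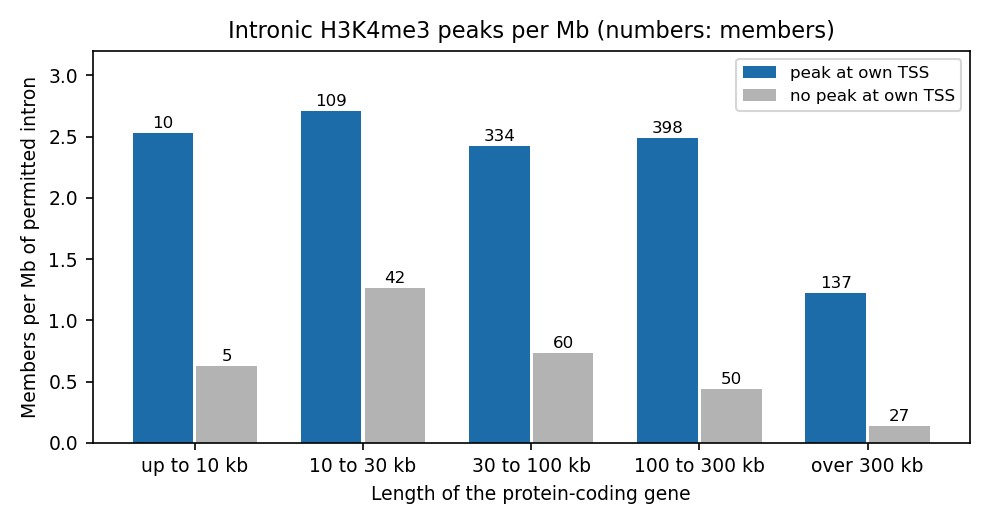
Members per Mb of permitted intron (vertical axis) in coding genes with and without a peak at their own TSS, by gene length (horizontal axis), with the number of members above each bar. Genes with an own peak had the higher density in all 5 classes, for example 2.49 against 0.441 at 100 to 300 kb.

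The functions of the hosts were described with gene lists, set beside the background of 4.07% of coding genes that hosted a member and 1.32 members per Mb. These counts carry no test. The lists differ from all coding genes in length and in the share with an own TSS peak. Genes with such a peak had 2.17 members per Mb, and 6.58% of them were hosts (24.1% of those 100 to 300 kb long). Among 40 genes of the actin cytoskeleton and focal adhesions, 15 hosted 28 members (37.5%, 6.23 per Mb), and 37 of the 40 had a peak at their own TSS. The hosts with the widest members included Myh9, Pxn and Actn1 (5214 bp), which encodes the actin crosslinker alpha-actinin. Dst, a cytoskeletal linker gene, and Lpp, a LIM protein gene of cell contacts, had 4 members each.

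Genes of the Hippo pathway, which restrains growth through the coactivators YAP and TAZ and the TEAD factors, had the highest density of the lists given. Of 28 genes, 6 hosted 12 members (21.4%, 6.65 per Mb), and all 28 had a peak at their own TSS. Wwtr1, which encodes TAZ, had a member of 3742 bp in its second intron, 64.0 kb from its nearest TSS. Vgll4, a TEAD cofactor that opposes YAP, had 5, up to 2382 bp wide. Tead1 had 3, the widest 1419 bp, and Wwc2 (1349 bp), Tead4 (901 bp) and Lats2 (714 bp), a kinase of the pathway, had 1 each.

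Of 35 genes of TGF-beta and BMP signalling, 7 were hosts (3.40 per Mb). They included the receptor gene Tgfbr3 (2638 bp), the signal transducer Smad3 (2 members), the inhibitor Smad7 (1350 bp) and Eng, a co-receptor gene without an own TSS peak (1833 bp). Of 35 WNT pathway genes, 4 were hosts with 1 member each (1.87 per Mb), in the receptor genes Ryk (3121 bp) and Lrp5 (1794 bp) and the transcription factor genes Tcf7 (1271 bp) and Tcf7l2 (572 bp). Of 46 receptor tyrosine kinase genes, 10 were hosts (1.77 per Mb), with Pdgfrb, Igf1r (2839 bp), Fgfr1 (2786 bp) and Insr (2194 bp) holding the widest. Fgfr2 was counted among them with 3 members, through its long gene model.

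Of 50 transcription factor genes chosen for their length, 22 hosted 39 members (44.0%, 2.98 per Mb). Trps1, a GATA-type repressor gene, had a member of 3948 bp, and Bach2, a bZIP repressor gene, one of 3604 bp. Of 48 chromatin regulators, 10 were hosts (3.73 per Mb), including Hdac7 (3 members), Arid1b (2 members) and Dnmt1 (1400 bp). Of 50 extracellular matrix genes, 8 were hosts (2.67 per Mb). These included the perlecan gene Hspg2 (3 members), the laminin gene Lamc1 (2366 bp), the collagen gene Col4a2 (1899 bp) and the protease inhibitor gene Timp2 (1599 bp). In contrast, 50 long neural genes, with a median length of 947 kb, held 3 members in 50.2 Mb of permitted intron (0.0597 per Mb), in Dpp6, Nrxn2 and Astn2. Only 5 of the 50 had an own TSS peak, and none of these 3 hosts did. All coding genes over 300 kb without an own TSS peak had 0.136 members per Mb.

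Markers of cell type were counted by the peak at their own TSS. It was present at 5 of 21 luminal mammary markers, 3 of 13 basal markers, 15 of 22 fibroblast and mesenchymal markers and 1 of 16 immune markers, or 23.8%, 23.1%, 68.2% and 6.25%, against 50.2% of all coding genes. The share was thus below that of all genes for the luminal, basal and immune markers and above it for the fibroblast and mesenchymal ones. Intronic members were found in 2 luminal markers, Cdh1 (737 bp), the E-cadherin gene, without an own TSS peak, and Esr1 (701 bp), the estrogen receptor gene. They were found in 3 fibroblast and mesenchymal markers, Pdgfrb, Twist2 (2134 bp) and Col5a1 (743 bp), and in no basal or immune marker.

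Of 10 motifs searched on both strands of the central 500 bp, AP-1 was the one tested. It was present in 286 of 1172 intronic peaks (24.4%, 95% CI 22.0 to 26.9), 20.2% of intergenic peaks and 6.55% of start-site peaks. Per chromosome the share was 23.2% in intronic and 6.39% in start-site peaks, a difference of 16.8 percentage points (SD 7.04, positive on 19 of 20 chromosomes, permutation test, adjusted p = 1.67e-05). Against the flanks, which had the motif in 8.66%, the centre was 14.6 points higher (SD 8.00, 19 of 20 chromosomes, permutation test, adjusted p = 1.67e-05). The difference from intergenic peaks was 2.23 points (SD 8.07, positive on 15 of 20) and did not pass the threshold (permutation test, adjusted p = 0.265). Each chromosome has equal weight here, including X with its 8 members. On the 19 autosomes alone the difference was 3.47 points (permutation test, adjusted p = 0.025), and the other alternatives are given in the closing section. The motif was present in 24.2% of members with an island (95% CI 19.8 to 29.3) and 24.5% of those without (95% CI 21.7 to 27.5). GC content was 46.3% in the flanks, 50.2% in intronic and 55.3% in start-site peaks, and the part of base composition in these differences was not tested.

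The AP-1 motif was most frequent near the midpoint. In bins of 200 bp, the share of intronic peaks with the motif averaged 10.8% in the 2 bins next to the midpoint, against 3.82% beyond 2000 bp. The highest share, 12.6%, was in the bin from 200 to 400 bp on the side of higher coordinates. Intergenic peaks averaged 9.12% next to the midpoint. Start-site peaks were at 2.70% next to the midpoint and 3.53% beyond 2000 bp.

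**Figure D5:**
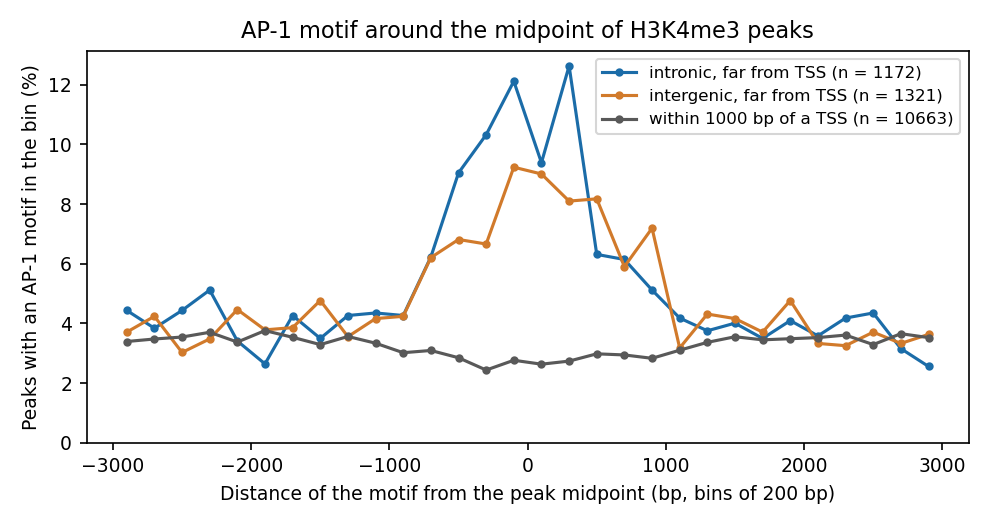
Share of peaks with an AP-1 motif (%, vertical axis) in bins of 200 bp by distance from the peak midpoint (bp, horizontal axis) for 1172 intronic, 1321 intergenic and 10663 start-site peaks. Both far classes rise near the centre, with a mean of 10.8% in the 2 bins next to the midpoint of intronic peaks against 2.70% in start-site peaks.

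The 9 other motifs are given without a test. The TEAD motif GGAATG was present in 30.5% of intronic peaks, 29.0% of intergenic peaks, 22.5% of flanks and 21.2% of start-site peaks. The SP/KLF motif GGGCGGG, the GC box, was present in 10.2% of intronic peaks, 18.2% of intergenic peaks, 4.17% of flanks and 28.65% of start-site peaks. The ETS motif CCGGAAG was present in 4.61%, 6.81%, 1.76% and 10.1%, in the same order. RUNX (TGTGGTT) was at 12.1% in intronic peaks, 12.0% in intergenic peaks and 12.1% in flanks. AGATAA, the motif of GATA factors, was at 20.1%, 17.6% and 22.2%, and STAT (TTCNNNGAA) at 15.4%, 15.2% and 13.4%, in that order. The E-box CACGTG was at 9.13%, 8.93% and 7.36%, NRF1 (GCATGCGC) at 0.853%, 2.42% and 0.645%, and CRE (TGACGTCA) at 0.853%, 0.454% and 0.473%. No motif searched contains another. A match is a run of letters and not evidence of binding.

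Members were unevenly spread over chromosomes. Chromosome X held 8, which was 2.27% of its peaks and 0.199 per Mb of permitted intron. Autosomes held 21 to 111 members each, 6.27% to 11.7% of their peaks, and 0.623 to 2.23 per Mb. In genes with an own TSS peak, the density was 0.466 per Mb on X and 1.27 to 3.71 per Mb on autosomes, so X lay below every autosome on each of these measures.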

How the data were processed

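The H3K4me3 ChIP of C127 cells had 3 replicates. Samples were grouped by the labels (12 groups), and 21 samples were not used here. Per the study's methods, the authors aligned reads to mm10 with Bowtie2, discarded reads without a unique position, removed duplicates with SAMtools and called peaks with MACS2 per replicate against the input (q of 0.01). Peaks overlapping in all replicates were kept and those within 250 bp merged. Versions are not given in the sources used here. Discarding multi-mapping reads can leave repeats without peaks. The deposited list of 13451 peaks gives positions in bp, with no score or height, and depth per sample is unknown. All peaks fitted the chromosome lengths of GRCm38.p6, and 13447 on 20 chromosomes were used. Starts were converted to 1-based positions.

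Peaks were classed with GENCODE vM21 (21755 protein-coding genes, 130588 TSSs). The host was the coding gene with the nearest own TSS, and its representative transcript was taken by APPRIS level, then length. CpG ratio, GC, soft-masked repeats and motifs were read in the central 500 bp of the reference sequence, and in windows centred 5000 bp to either side that touched no peak. Tests were two-sided sign-flip permutation tests over the 20 per-chromosome differences (100000 resamples), since neighbouring loci are not independent, with Benjamini-Hochberg adjustment over 10 tests and a threshold of 0.05. P-values concern chromosomes of this list, not replicates. Functions were tested on simulated data. The computations ran in Python 3.11.15 (scipy 1.17.1, numpy 2.4.6, matplotlib 3.10.9, pandas 2.3.3).

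Alternatives were other TSS distances, RefSeq TSSs, whole-peak exon exclusion, 1 member per host, autosomes, other windows, strict islands, other first-intron and own-peak definitions, a width minimum and, added after the host counts were seen, leaving out Gm20388. The rule for named genes takes hosts of the 10 widest members, the 10 hosts with most members, the 5 highest and 5 lowest CpG ratios, the 5 members farthest from a host TSS, and up to 4 hosts per list. Other genes named were chosen after their values were seen. The members, lists and tests were chosen with earlier results of these data known. Some genes, 1 list and 1 sequence that this rule names are not reported here.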

Additional observations from a re-analysis of the deposited data

How the results depend on the processing

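Of 104 recomputed values of the 10 tests, 100 kept their direction and their side of the threshold and 4 passed it where the reported value did not. The AP-1 share of intronic peaks exceeded that of intergenic peaks by 3.47 percentage points on autosomes alone (permutation test, adjusted p = 0.025), by 8.52 points in a central window of 1000 bp (adjusted p = 8.75e-05) and by 10.7 points in whole peaks (adjusted p = 1.12e-04). Over its 11 alternatives the adjusted p ran from 8.75e-05 to 0.339. The width difference was 110 bp with 1 member per host gene (permutation test, adjusted p = 0.0391), and its adjusted p over 9 alternatives ran from 0.0391 to 0.368. In that setting the member kept was the widest of its host, while intergenic peaks were not thinned, so the width difference is raised by the selection. The cause of the AP-1 changes was not tested. Of 96 recomputed values without a test, 86 stayed within the counting error of the reported value (or, for counts of genes, within 1.5 times) and 10 did not. The latter included the AP-1 share of members (43.8% in 1000 bp, 47.5% in whole peaks), the share with a strict island, and the median width and host TSS distance when other members were counted. With 1 member per host, the count of hosts with several members is 0 by construction. Leaving out Gm20388 moved no test across its threshold.

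No paired analysis was possible because the replicates were combined in 1 list before deposit, which also left no replicate to leave out. With 8 members on X, its per-chromosome values are the least precise. Peak heights and depth are not in the list, so weak peaks cannot be told from strong ones.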
